A study of Arabidopsis thaliana with 16 samples.

Results

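The H2A.Z landscape of wild-type *Arabidopsis thaliana* (Columbia-0) was described from 2 lists of summits, one for each replicate, at which H2A.Z was enriched over H3. A summit is the single position of highest enrichment that the peak caller MACS2 gave within a peak. Replicate 1 had 29980 summits and replicate 2 had 26536. Summits of both replicates that lay within 200 bp of each other were joined, which gave 21919 common sites. The H2A.Z-over-H3 lists of all genotypes of the series hold 103220 summits in all.

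Shoots of seedlings were taken 13 days after germination, and chromatin of each replicate, which had been grown on its own plates and pooled from seedlings, was divided between an H2A.Z and an H3 ChIP. The H2A.Z antibodies were raised against HTA9 and HTA11, a pair of H2A.Z proteins. Wild type carried no mutation. The *mbd9-3* mutant, the *arp6-1* mutant and the double mutant *arp6-1 mbd9-3*, all of the same age, were used here only for comparison. Each genotype had 2 replicates. A shoot holds many cell types, so a site can come from all cells or from some of them.

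H2A.Z is a variant of histone H2A that the SWR1 remodelling complex puts into nucleosomes in place of H2A. In plants it is best known from the first nucleosomes of transcribed genes and from the bodies of genes whose expression responds to the environment or to development, and it is scarce in heterochromatin. ARP6 and PIE1 are SWR1 subunits, and MBD9 is a protein that binds the complex. H3 is present in nearly all nucleosomes, so enrichment over H3 describes the share of H2A.Z at a place rather than the number of nucleosomes there.

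The positions are shown first with the sequence under 4 sites, 3 of them among the 10 with the highest scores in protein-coding genes, and the fourth at the floral repressor gene *FLC*, a known H2A.Z target. The score is the authors' −log10 of the q value, and a common site takes the lower score of its replicates. Each sequence is 151 bp long, is centred on the site, and is written 5′ to 3′ on the strand of the gene, with capitals from the summit of one replicate to that of the other. They are from the TAIR10.1 assembly and lie at chr2:7097754-7097904 (exon 2 of *DRD1*), chr3:21169450-21169600 (exon 1 of AT3G57200), chr4:12390323-12390473 (exon 1 of *3xHMG-box2*) and chr5:3179107-3179257 (exon 1 of *FLC*, minus strand).
DRD1: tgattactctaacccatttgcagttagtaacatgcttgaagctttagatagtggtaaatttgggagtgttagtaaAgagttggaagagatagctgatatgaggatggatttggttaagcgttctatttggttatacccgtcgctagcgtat
AT3G57200: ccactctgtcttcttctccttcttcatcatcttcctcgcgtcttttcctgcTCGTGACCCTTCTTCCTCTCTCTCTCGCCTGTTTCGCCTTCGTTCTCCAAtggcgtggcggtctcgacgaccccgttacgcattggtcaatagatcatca
3xHMG-box2: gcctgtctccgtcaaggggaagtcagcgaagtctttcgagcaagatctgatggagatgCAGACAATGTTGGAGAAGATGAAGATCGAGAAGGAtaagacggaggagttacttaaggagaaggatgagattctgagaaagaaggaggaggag
FLC: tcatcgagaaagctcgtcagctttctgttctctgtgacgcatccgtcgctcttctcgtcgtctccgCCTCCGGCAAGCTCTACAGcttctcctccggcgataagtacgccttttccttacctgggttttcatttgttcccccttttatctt
The summits of both replicates fell on the same base at *DRD1* and lay 49 bp apart at AT3G57200, 34 bp at *3xHMG-box2* and 18 bp at *FLC*. The first 3 windows are coding sequence throughout, whereas the *FLC* window has 103 coding bases followed by 48 bases of the first intron. The G and C content is 38.4% at *DRD1*, 53.0% at AT3G57200, 47.7% at *3xHMG-box2* and 51.7% at *FLC*.

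Of the summits of replicate 1, 72.2% had a partner in replicate 2 within 200 bp, and of those of replicate 2, 82.1% had one in replicate 1. Common sites were defined by this limit, so the offsets below describe only summits that met it. The best summits of both replicates at a common site lay a median of 40 bp apart (quartiles 17 and 80 bp), and 59.0% of sites had an offset of 50 bp or less. Only 7.78% had one of over 150 bp, near the joining limit. Across the common sites, Spearman's rho between the scores of both replicates was 0.57. This is a description over 21919 sites, which are not independent. Summits that found no partner had lower scores. Their median score was 4.24 in replicate 1 (8321 summits) and 3.77 in replicate 2 (4756 summits), against 7.26 and 5.91 for those with a partner. Of the summits without a partner, 36.6% in replicate 1 and 27.1% in replicate 2 lay within the first 500 bp of a protein-coding gene, and of those with a partner 48.8% and 48.7%. The median score of a common site was 5.26 (quartiles 3.72 and 7.74), 2745 sites had a score of 10 or more in both replicates, and the highest was 49.2.

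About 1 in 5 peaks held several summits. Replicate 1 had 23754 peaks, of which 20.5% had more than 1 summit, and replicate 2 had 21015, of which 20.7% did. The largest number in a peak was 10 in replicate 1 and 19 in replicate 2. Neighbouring summits of the same peak lay a median of 305 bp apart in replicate 1 (quartiles 233 and 401 bp) and 297 bp in replicate 2 (quartiles 224 and 386 bp).

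Common sites came in groups. The median distance between neighbouring sites on a chromosome was 2754 bp (quartiles 844 and 6283 bp), beside a median of 3295 bp between the starts of neighbouring protein-coding genes (quartiles 1919 and 5168 bp). The quartiles of sites were thus farther apart than those of gene starts. Of the distances between sites, 28.2% were under 1000 bp and 13.2% over 10000 bp. There were 113 distances over 50000 bp, and the longest was 1595714 bp. Within a protein-coding gene, neighbouring sites lay a median of 481 bp apart (6172 distances, quartiles 278 and 908 bp). The most frequent distance, from 100 to 200 bp, is set in part by the joining, since 11.4% of common sites shared a summit of one replicate with another site. When each summit was allowed 1 partner, the median distance within genes was 599 bp (5072 distances, quartiles 383 and 1041 bp), and 1.18% of these distances were under 200 bp.

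Most sites lay in protein-coding genes, and the 5′ end was the part with most of them. The centres of 19776 common sites (90.2%) fell within protein-coding genes, which cover 54.1% of the genome. The class with most sites was the 5′ end, the first 500 bp of a protein-coding gene from its annotated start. It held 10732 sites, which is 49.0% (95% exact Clopper-Pearson interval 48.3 to 49.6%), although it makes up 11.3% of the genome. This is 4.35 times its share of bases, or 800 sites per Mb. In the single lists the 5′ end took 45.4% of summits in replicate 1 and 44.8% in replicate 2, a difference between replicates far smaller than that from the share of bases. Intervals cover counting error only, as the lists give no read counts.

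Taken as wholes, the other parts of genes held sites at about their share of bases. The gene body, from 500 bp after the start to 500 bp before the end, had 31.1% of sites (30.5 to 31.7%) and 32.8% of bases. The last 500 bp, the 3′ end, had 10.1% of sites, which is 1.01 times its share of bases. Sites were uneven within it. In genes of at least 2000 bp there were 0.0831 common sites per 100 genes in the last 50 bp. From 400 to 450 bp before the end there were 1.45. Outside genes sites were few. The 500 bp before a gene's start had 339 sites, 1.55% of all beside 8.45% of bases, and the 500 bp after its end had 240 sites, 1.09% beside 4.79%. Other annotated genes, namely pseudogenes and genes of non-coding RNA, held 4.55% of sites and 9.38% of bases. The remaining intergenic sequence had 567 sites, 2.59% beside 23.3% of bases, or 20.5 sites per Mb. Intergenic sequence and other genes can be reached by fewer uniquely mapping reads. Of their 50-base stretches, 87.8% and 80.3% were found once in the nuclear genome, against 97.9% at 5′ ends. Counted per Mb of such unique sequence, there were 23.3 sites in intergenic sequence, 111 in other genes and 817 at 5′ ends.

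Scores were highest at 5′ ends. Sites at 5′ ends had a median score of 8.16 in replicate 1 and 6.51 in replicate 2. In gene bodies the medians were 6.54 and 5.55, and in intergenic sequence 5.54 and 4.69, so that 5′ ends came first and intergenic sites last in both replicates. Of the 100 sites with the highest scores, which had scores of 18.8 or more in both replicates, 72 lay at 5′ ends and 22 in gene bodies.

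**Figure D1:**
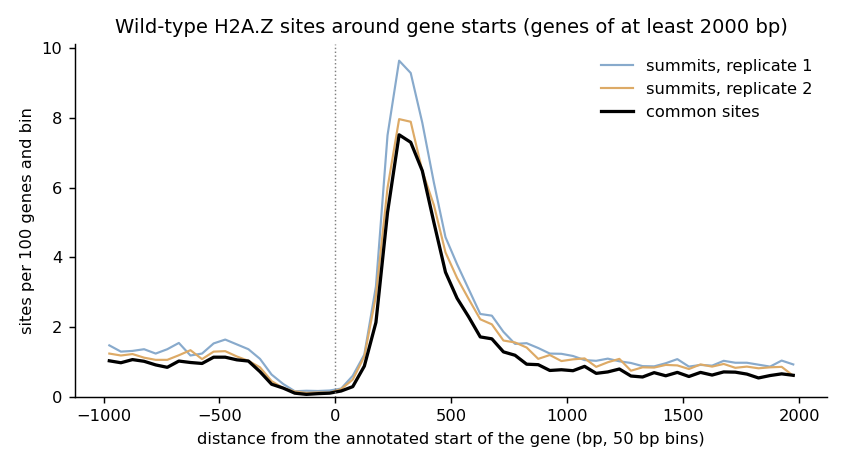
Sites per 100 genes in bins of 50 bp around the annotated gene start, for 14444 protein-coding genes of at least 2000 bp, with separate lines for the common sites and the summits of each replicate. All lines are near 0 just before the start and highest from 250 to 300 bp after it, where the common sites reach 7.51 per 100 genes.

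The distance from the gene start was narrow. Among 14444 protein-coding genes of at least 2000 bp, common sites were most frequent from 250 to 300 bp after the start, with 7.51 sites per 100 genes in that bin of 50 bp. Replicate 1 had 9.64 summits per 100 genes and replicate 2 had 7.96 in the same bin, which was the highest of each list. In the bin just before the start there were 0.104 common sites per 100 genes, and in the bin just after it 0.166. From 1000 to 2000 bp after the start the mean was 0.668 per bin. Between 1000 and 500 bp before the start, where neighbouring genes often lie, it was 0.995. The space just upstream of the start was therefore emptier than both the gene body and the more distant upstream sequence. In the 4910 genes of this length with a single site, that site lay a median of 361 bp from the start (quartiles 281 and 504 bp), and in 74.4% of them within the first 500 bp.

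Within genes most sites lay in coding sequence. The shares below take no account of distance from the gene start, and its part in them was not tested. Of 20077 placements of a site centre in a protein-coding gene, counted on the transcript with the longest coding sequence, 83.2% were in coding sequence, which makes up 51.2% of gene bases. Introns had 10.4% of placements and 29.5% of bases. The 5′ UTR had 4.65% and 7.71%, and the 3′ UTR had 1.14% and 10.1%. Per base, coding sequence held 1.62 times and the 3′ UTR 0.113 times the mean over genes. First exons of genes with introns took 35.8% of placements, the exons of genes with a single exon 21.5%, inner exons 17.0% and last exons 14.7%. Of the placements in introns, 1465 were in the first intron and 624 in later ones.

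**Figure D2:**
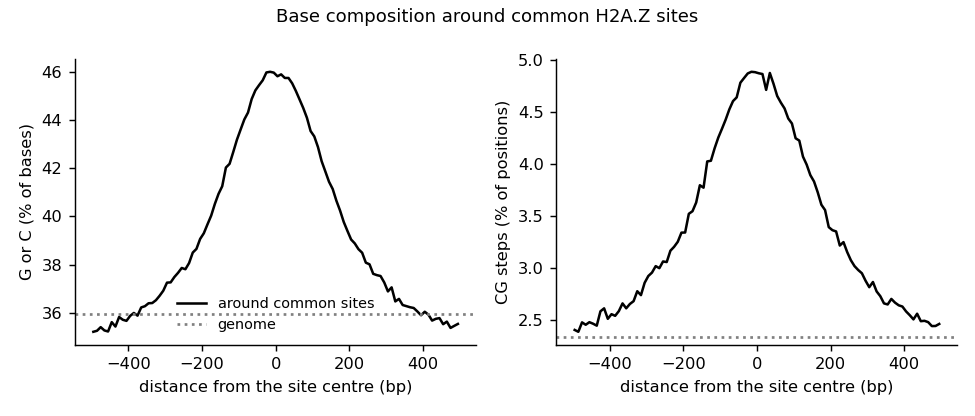
Base composition from 500 bp before to 500 bp after the centres of the 21919 common sites in bins of 10 bp, as percent of G or C bases and percent of CG steps, with the genome mean as a dotted line. G and C content is highest at the centre, at up to 46.0%, and returns to the genome mean of 36.0% within 500 bp.

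The sequence under the sites was rich in G and C. Within 75 bp of a site centre 45.4% of bases were G or C, at 120 to 200 bp from it 40.8%, and at 400 to 500 bp from it 35.6%, where the genome has 36.0%. CG steps, the main context of DNA methylation in plants, made up 4.74% of positions near the centre, 2.49% at 400 to 500 bp and 2.34% in the genome. Steps of A or T followed by A or T fell off towards the centre, to 27.8% beside 40.0% in the genome. The content was compared with that of sequence at a fixed distance from gene starts. This sequence includes genes with a site. The 5′-end sites lie up to 500 bp from the start, so position was not matched, here or for the motifs below. The windows of 151 bp centred on 5′-end sites had a median of 45.7% G and C, whereas windows of the same length from 175 to 325 bp after the start of all protein-coding genes of at least 500 bp had 41.1%. Sites in gene bodies also had 45.7%. The G and C content also differs between coding and non-coding sequence, and its part in the position of sites was not tested.

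Motifs were searched for on both strands of these windows, 6 in all, none of which contains another. A run of 8 A (AAAAAAAA) was in 1.25% of common sites, in 8.09% of the windows after gene starts and in 9.99% of 151 bp tiles of the genome. The TATA box TATAAATA was in 0.297%, 1.33% and 2.94% of these. The telobox AAACCCTA, a motif of the genes for ribosomal proteins and other parts of translation, was in 3.35% of 5′-end sites and 5.70% of windows after gene starts. The GAGA repeat GAGAGAGA was in 5.89% and 8.33%. The G-box CACGTG, bound by bZIP and bHLH factors, was in 2.59% of 5′-end sites, 3.43% of gene-body sites, 1.77% of windows after gene starts and 1.66% of genome tiles. TGGGCC, the site II element, was in 1.53% of 5′-end sites and 1.53% of windows after gene starts. The first 2 motifs consist of A and T alone, and their shares move with the base composition given above.

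Genes with and without a site were nearly equal in number. Of 27444 protein-coding genes, 13958 were overlapped by a common site, which is 50.9% (50.3 to 51.5%) and the background for all groups of genes below. A further 3747 genes had a summit of one replicate or summits of both that lay too far apart, and 9739 genes (35.5%) had no summit of either. Most genes with a site had 1 (9637 genes, 69.0%). There were 2990 genes with 2 sites, 934 with 3, 280 with 4, 79 with 5 and 38 with 6 or more. Genes with more sites were longer, with a median of 2033 bp at 1 site, 2321 bp at 3 and 3827 bp at 6 or more. The first site whose centre was inside a gene lay a median of 359 bp from its start (quartiles 266 and 513 bp).

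**Figure D3:**
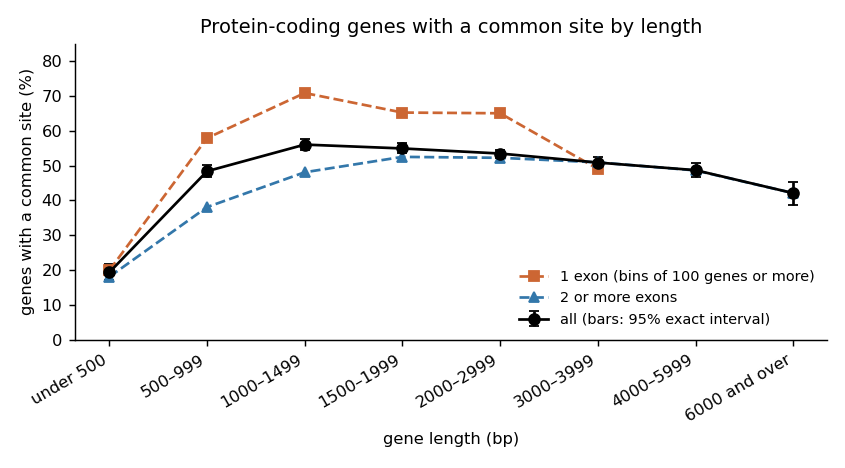
Percent of protein-coding genes with a common site in 8 classes of gene length, for all genes with 95% exact intervals and split into genes with 1 exon and with 2 or more. The share is 19.3% below 500 bp, highest at 56.1% from 1000 to 1499 bp, and higher for single-exon genes from 500 to 2999 bp.

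Length and exon number went with the share of genes that had a site. It was 19.3% in genes under 500 bp (239 of 1237), 48.4% from 500 to 999 bp, 56.1% from 1000 to 1499 bp and 53.5% from 2000 to 2999 bp. In the longest genes, of 6000 bp and over, it was 42.1% (38.8 to 45.5%), although such genes offer the most sequence. The number of sites per kb of gene fell from 0.711 between 500 and 999 bp to 0.0774 at 6000 bp and over. At the same length, up to 2999 bp, the share was higher in genes of 1 exon than in genes of several exons. From 1000 to 1499 bp the share was 70.9% for 1378 single-exon genes and 48.1% for 2569 others, and from 2000 to 2999 bp it was 65.1% and 52.3%. Among genes of 1000 to 2999 bp the share went down with the number of exons, from 67.8% with 1 exon over 56.5% with 2 to 45.2% with 9 or more. Genes with a site had a median of 3 exons and genes without one a median of 4. The first 500 bp of genes with a site had a median of 40.4% G and C, and of those without 38.6%.

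Few genes start in sequence at which reads cannot be placed uniquely. In the first 500 bp of 448 genes, under 50% of the 50-base stretches were unique in the genome, and 2.68% of these genes had a site. Among the 25017 genes in which all of this sequence was unique, 53.3% had one.

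**Figure D4:**
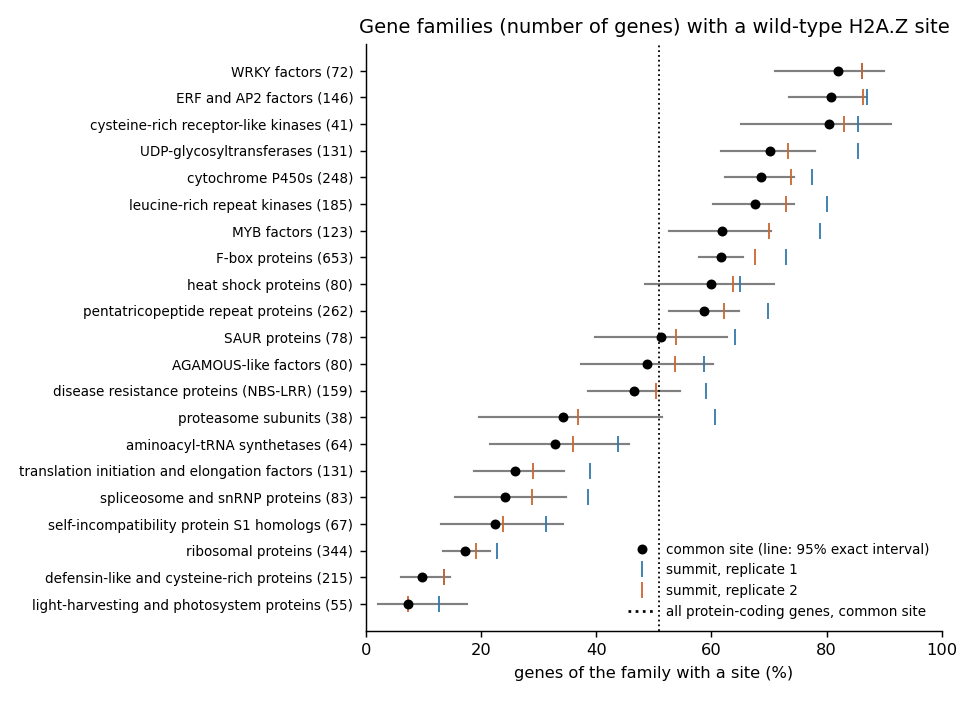
Percent of genes in 21 families, taken by product name, with a common site (points, with 95% exact intervals) and with a summit of replicate 1 or replicate 2 (ticks). WRKY, ERF and AP2 and MYB factors, receptor kinases and glycosyltransferases are right of the 50.9% of all protein-coding genes (dotted line), and ribosomal, photosystem and translation proteins are left of it.

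Gene families differed widely around the background of 50.9%. They were collected by the product names of the annotation, so a family can be incomplete. Of the families above it, some hold transcription factors and some hold receptors or enzymes. A site was found at 59 of 72 genes of WRKY factors (81.9%, interval 71.1 to 90.0%), which act in defence, and at 118 of 146 genes of ERF and AP2 factors (80.8%, 73.5 to 86.9%). It was found at 33 of 41 genes of cysteine-rich receptor-like kinases (80.5%) and at 125 of 185 genes of leucine-rich repeat kinases (67.6%), both of them surface receptors. Among enzymes of secondary metabolism, 92 of 131 genes of UDP-glycosyltransferases (70.2%) and 170 of 248 genes of cytochrome P450s (68.5%) had a site. F-box proteins, which choose targets for degradation, had one at 403 of 653 genes (61.7%) and MYB factors at 76 of 123 (61.8%).

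Other families lay below the background. A site was found at 59 of 344 genes of ribosomal proteins (17.2%, interval 13.3 to 21.6%), 34 of 131 genes of translation initiation and elongation factors (26.0%) and 20 of 83 genes of spliceosome and small nuclear ribonucleoproteins (24.1%). For aminoacyl-tRNA synthetases it was 21 of 64 (32.8%) and for proteasome subunits 13 of 38 (34.2%). The lowest share was in light-harvesting and photosystem proteins, with 4 of 55 genes (7.27%, 2.02 to 17.6%), and 48 of these genes had no summit of either replicate. Of 215 genes of defensin-like and low-molecular-weight cysteine-rich proteins, 9.77% had a site, and of 67 genes of self-incompatibility protein S1 homologs 22.4%. Their genes are short, with medians of 550 bp and 553 bp, where 48.4% of all protein-coding genes of 500 to 999 bp and 19.3% of those under 500 bp had a site. Of the 22 defensin-like and cysteine-rich genes of 1000 to 2999 bp, 27.3% had one.

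Families also lay far apart when genes of similar length were compared. Among genes of 1000 to 2999 bp, where the background was 54.6%, the share was 15.5% for 290 ribosomal genes, 6.25% for 48 light-harvesting and photosystem genes and 26.0% for 77 genes of translation factors. In the same band it was 83.1% for 59 WRKY genes, 78.9% for 109 ERF and AP2 genes and 70.7% for 215 cytochrome P450 genes. The first 500 bp of these families were on average at least 97.4% unique. Genes of disease resistance proteins of the NBS-LRR class stood at 46.5% over all lengths (74 of 159), with 92.4% unique sequence in their first 500 bp, and at 65.2% among the 23 genes of 1000 to 2999 bp. AGAMOUS-like factors were at 48.8% (39 of 80) over all lengths and at 48.5% among the 33 genes in this band. SAUR proteins, which are induced by auxin, were at 51.3% (40 of 78) and at 66.7% among the 15 genes in this band.

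Families also differed in where in the gene the sites lay. Of all protein-coding genes of at least 1500 bp, 22.8% had a site in the gene body. The share was 52.5% for WRKY factors (59 genes of this length), 45.6% for ERF and AP2 factors (57 genes), 44.7% for cytochrome P450s (237), 44.6% for leucine-rich repeat kinases (184) and 40.6% for UDP-glycosyltransferases (128). Pentatricopeptide repeat proteins, which act on organelle RNA, had a site at 154 of 262 genes (58.8%), and 58.0% had one at the 5′ end, but only 2.03% of the 246 long genes had one in the body. For ribosomal proteins the share with a body site was 2.60% (192 genes of this length) and for heat shock proteins 10.4% (48 genes), although 60.0% of all heat shock protein genes had a site. The length of the body was not matched between families. Over all genes of a family, the median gene length was 3812 bp for leucine-rich repeat kinases and 2265 bp for pentatricopeptide repeat proteins. It was 1947.5 bp for WRKY factors and 1565 bp for ribosomal proteins.

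Short lists of well-known genes were chosen with earlier results of these data in view, so their counts describe these genes only. None of 10 photosynthesis genes had a site or a summit of either replicate, among them *RBCS1A* (a small subunit of Rubisco), *CAB1* (a chlorophyll-binding protein), *PSBO1* (a protein of photosystem II) and *RCA* (Rubisco activase). The 3 neighbouring *CAB* genes and *RBCS1B* share sequence with their relatives, and 80.6 to 94.0% of the first 500 bp of these 4 genes were unique. Of 12 reference genes in common use for expression studies, 2 had a site. *ACT8* (actin) had one at 318 bp from its start, with a score of 5.54 in replicate 1 and 2.79 in replicate 2, and AT4G34270, of the TIP41-like family, had one at 279 bp. The *ACT2* gene had 3 summits in replicate 2 and none in replicate 1, so it has no common site. *UBQ10*, *GAPC2* and *PP2AA3* had no summit in either.

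Of 8 genes of heat stress 7 had a site (interval 47.3 to 99.7%), beside 50.9% of all protein-coding genes. In the larger family of heat shock proteins 48 of 80 genes had one (60.0%, interval 48.4 to 70.8%). *HSFA2*, a heat shock transcription factor, had one at 353 bp from its start with scores of 11.95 and 14.7 in replicates 1 and 2. *HSP70* (AT3G12580) had one at 303 bp with 11.9 and 8.59, and *DREB2A*, a regulator of drought and heat responses, had one at 489 bp with 10.3 and 7.62. *HSP101*, a chaperone that dissolves aggregates, had 2 summits in replicate 1 and none in replicate 2. Genes of seed storage proteins, which are known for their expression in seeds, had sites in 7 of 9 cases. *CRU3*, a cruciferin, had 4 sites, at 118, 710, 1206 and 1874 bp from its start, and *CRU2* had 3, at 163, 1240 and 2038 bp. *SESA1*, a seed storage albumin, had a single site at 248 bp with scores of 16.0 and 10.8.

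Of 12 flowering regulators 5 had a site. *FLC* had 1 site in 6067 bp, at 266 bp from its start, with scores of 29.6 in replicate 1 and 18.1 in replicate 2. Its relatives *MAF4* and *MAF5* had 3 each. In *MAF4* they lay at 245, 3372 and 3623 bp, and in *MAF5* at 290, 3713 and 4698 bp. The *FLC* gene also had a common site in *mbd9-3*, *arp6-1* and the double mutant, whereas *MAF4* and *MAF5* had one only in *mbd9-3*. *MAF1*, *MAF3* and AGL31 (also called *MAF2*) had no summit of either replicate, with 97.6 to 100% of their first 500 bp unique. *CO* had a site at 566 bp and *GI* one at 665 bp, both close to the limit of detection with scores of 2.70 and 3.38, whereas *FT* had 1 summit in replicate 1 only. There was no summit at *SVP*, *FRI* or AGL20 (also called *SOC1*). Floral homeotic genes had sites in 4 of 8 cases. *SHP2* had the highest score of these, 7.73, at 590 bp, and *PI* had its site at 2220 bp of 2612 bp.

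Genes of the SWR1 complex and of H2A.Z itself had sites in 4 of 13 cases. *PIE1*, the ATPase of the complex, had no summit in 9153 bp, and *ARP6* had 1 in replicate 1 only. *MBD9* had a site at 275 bp with scores of 5.73 and 4.69. Of the 3 H2A.Z genes, *HTA8* had a site at 295 bp with scores of 19.0 and 16.6, *HTA11* had one at 398 bp with 9.80 and 6.06, and *HTA9* had a summit in replicate 1 only. Among 10 genes of other core histones, 7 had a site. All 5 histone H3 genes of the list, each of 1 exon and between 723 and 833 bp long, had 1 site, at 197 to 387 bp from the start. Of the 4 H2A genes of the list, only *HTA10* had common sites. The lists hold between 8 and 13 genes, so their intervals are wide. They were 15.2 to 72.3% for the flowering regulators and 47.3 to 99.7% for the heat stress genes, and both include the background of 50.9%. The intervals of the photosynthesis genes, 0 to 30.8%, and of the reference genes, 2.09 to 48.4%, lie below it. Those of the remaining lists include it.

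The highest score, 49.2 in replicate 1 and 66.9 in replicate 2, was at *DRD1* (AT2G16390, a remodeller of the RNA-directed DNA methylation pathway), 549 bp from its start. The next 9 genes had scores between 22.7 and 26.5. They included *PAB5* (poly(A)-binding protein, site at 894 bp), *3xHMG-box2* (a chromosomal protein of dividing cells, at 231 bp), *SLY2* (an F-box protein of gibberellin signalling, at 399 bp), *SDS* (a cyclin of meiosis, at 282 bp) and a second gene annotated as a cyclin, AT3G57370 (at 311 bp). The other 4 were AT3G57200 (glycosyltransferase-like, at 260 bp), AT2G33000 (an ubiquitin-associated domain, at 356 bp), AT4G33870 (a peroxidase, at 228 bp) and AT1G20030 (a thaumatin, at 681 bp). All 10 genes had a common site in *mbd9-3* as well, and 9 had one in *arp6-1*, the exception being *PAB5*. In the double mutant, where 1.64% of all wild-type common sites were found, only *DRD1*, AT3G57200 and AT2G33000 of these genes had one. Sites with high scores were chosen here by these scores, and the values describe them only.

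Most sites were held by *HAF2* (AT3G19040), a histone acetyltransferase of the TAFII250 family, with 10 in 8593 bp. Of these, 6 lay between 11 and 1756 bp and the other 4 between 7222 and 8289 bp, with no common site between. *HA4* (AT3G47950), a proton pump of the plasma membrane, had 9 sites in 5334 bp. The ABC transporter gene *ABCB12*, AT1G72270 (a nucleolar protein) and AT5G18350 (an NBS-LRR protein) had 8 each. A summit can belong to more than 1 site, so the joining has a part in these counts. *HAF2* had 9 summits in replicate 1 and 10 in replicate 2, and the genes with 8 sites had 7 summits each in replicate 2. The longest genes without a summit of either replicate were AT1G58602 (19695 bp, disease resistance), *ILA* (18607 bp), *TOR* (17748 bp, the central kinase of growth control), *SYD* (17067 bp, a chromatin remodeller) and AT4G39420 (16023 bp). The first 500 bp of each of these 5 genes were unique, so reads could be placed there. Over its whole length AT1G58602 was 92.3% unique. It lies in a stretch of chromosome 1 without common sites that was 37.7% unique.

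In other kinds of annotated genes the share with a site was lower than the 50.9% of protein-coding genes. Of 3917 pseudogenes 4.34% had a site (3.72 to 5.03%), although their median length of 2043 bp is close to that of protein-coding genes. Of these pseudogenes 62.2% lie in pericentromeres, and their 50-base stretches were on average 78.9% unique. Of 926 transcribed pseudogenes 25.8% had a site, of 3480 genes of long non-coding RNA 17.4%, and of 326 miRNA genes 9.51%. These genes are short, with median lengths of 781.5, 343 and 144.5 bp. Among protein-coding genes, 19.3% of those under 500 bp and 48.4% of those from 500 to 999 bp had a site. None of 625 tRNA genes had one (exact interval up to 0.588%), and their 50-base stretches were 59.0% unique. Such genes can lie within or next to protein-coding genes. Counting only those at least 500 bp from any protein-coding gene, the shares were 2.97% of 3465 pseudogenes, 21.5% of 516 transcribed pseudogenes, 14.1% of 1348 long non-coding RNA genes and 11.2% of 161 miRNA genes.

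**Figure D5:**
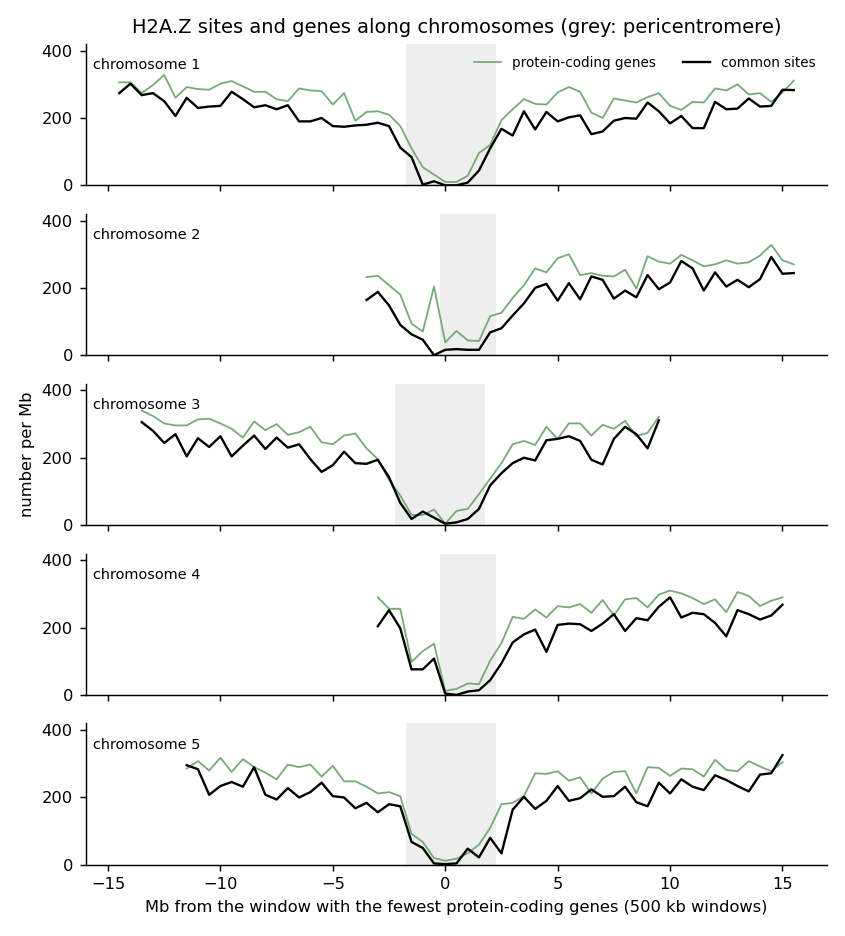
Common sites and protein-coding genes per Mb in windows of 500 kb along the 5 chromosomes, plotted by distance from the window with the fewest protein-coding genes, with pericentromeres in grey. Both lines drop together around that window, and on chromosome 2 a peak of genes just left of the grey zone has no site.

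Along the chromosomes the sites followed genes. There were 5799 sites on chromosome 1, 3249 on chromosome 2, 4486 on chromosome 3, 3281 on chromosome 4 and 5104 on chromosome 5, or 165 to 191 per Mb. Pericentromeres were defined by gene density, as the windows of 500 kb around the gene-poorest one in which genes were under 50% of the chromosome's median. They cover 17.0 Mb and held 484 sites, 28.5 per Mb, against 210 per Mb in the arms, a ratio of 0.136. It was between 0.0714 on chromosome 4 and 0.161 on chromosome 5. Of the 50-base stretches, 79.0% were unique in pericentromeres and 96.5% in arms, and per unique base the ratio was 0.166. Protein-coding genes are also few there, with 51.9 per Mb beside 260 in the arms. Of the 882 genes in pericentromeres, 22.3% had a site, and of the 26562 genes in the arms, 51.8% did. The share in pericentromeres was 18.6 to 27.4% over the 5 chromosomes and in the arms 49.5 to 52.5%, so the 2 ranges did not overlap. Pericentromeric genes were shorter, with a median of 1563 bp beside 2088 bp. Of the sites in pericentromeres, 31.2% were at 5′ ends, 31.4% in other genes and 9.71% intergenic, where the arms had 49.4%, 3.94% and 2.43%.

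The arms were uneven as well. Over 204 arm windows of 500 kb the median was 212 sites per Mb and the highest 326, and between 0 and 67.8% of a window's protein-coding genes had a site. The window without any was next to the pericentromere of chromosome 2. There, 106 protein-coding genes in a row, from AT2G07180 to AT2G07662, had no summit of either replicate. They span 518 kb at chr2:2980820-3498780, and 48.1% of its 50-base stretches also occur in the mitochondrial genome of the same assembly. Nuclear chromosome 2 is known to hold a large insertion of mitochondrial DNA. The authors aligned without the organelle genomes, and the part of mitochondrial reads in the absence of summits was not tested. Next came 48 genes at chr5:14302662-14496849, among them 30 of the ECA1 gametogenesis related family, whose sequence was 8.88% unique, and 25 genes at chr5:20562150-20627720, of which 4.04% was unique. In the other direction, 16 genes in a row on chromosome 4, from AT4G33885 to AT4G33990, each had a common site within 44.3 kb.

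The gene run of chromosome 2 lies in a gap that reaches into the pericentromere. Of the gaps wholly within arms, the longest were 134762 bp on chromosome 1, 158268 bp on chromosome 2, 70212 bp on chromosome 3, 159206 bp on chromosome 4 and 211432 bp on chromosome 5. They fall into different kinds. On chromosome 5 the gap holds 47 protein-coding genes and on chromosome 1 it holds 23, but 12.7% and 37.7% of their 50-base stretches were unique. On chromosomes 2 and 4 the gaps were 79.3% and 72.9% unique and held 6 and 3 protein-coding genes beside 30 and 25 pseudogenes. Both lie in windows of 70 to 98 protein-coding genes per Mb, beside 260 over all arms. They count as arm because windows richer in genes separate them from the pericentromere. The gap on chromosome 3 held 4 protein-coding genes and 12 pseudogenes and was 83.7% unique. A few summits of one replicate lay in these gaps, with up to 7 in replicate 1 and up to 2 in replicate 2.

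The wild-type landscape was compared with that of *mbd9-3*, the genotype with the next longest lists (15024 and 17839 summits). The share of summits in no gene, upstream, downstream or intergenic, was 6.97% and 6.35% in the wild-type replicates and 3.55% and 3.72% in the *mbd9-3* replicates. The groups did not overlap, and the difference of −3.03 percentage points was larger than the spread between replicates (SD 0.442 in wild type and 0.115 in *mbd9-3*, n = 2 each). With scores of at least 5 it was −1.67 points. The 5′ end held 45.1% ± 0.419 (SD, n = 2) of wild-type summits and 43.7% ± 1.48 (SD, n = 2) of those of *mbd9-3*, a difference of −1.42 points that is smaller than the spread in *mbd9-3*. Gene bodies held 32.4% and 33.5% in wild type and 37.9% and 39.3% in *mbd9-3*. Pericentromeres held 2.22% ± 0.0442 (SD, n = 2) and 2.13% ± 0.0128 (SD, n = 2). In an exact permutation test, two-sided, each of these 4 comparisons gave p = 0.333, which is the smallest that 2 against 2 lists can give, so none could pass a threshold of 0.05.

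Sites differed in whether they were also found in the mutants, where a common site within 200 bp was asked for. Over all common sites, 46.4% had one in *mbd9-3*, 11.9% in *arp6-1* and 1.64% in the double mutant. In *mbd9-3* 49.9% of the 5′-end sites, 46.8% of the gene-body sites, 37.4% of the 3′-end sites and 23.3% of the intergenic sites had one. In *arp6-1* it was 14.9% at 5′ ends and 9.37% in gene bodies. In the double mutant it was 1.39% at 5′ ends and 2.46% in gene bodies, so the order of these 2 classes was the opposite there. The score went with the share in all mutants. Among the 5461 sites with scores up to 3.72, 23.1% were found in *mbd9-3*, 1.61% in *arp6-1* and 0.330% in the double mutant, and among the 5481 sites with scores of 7.74 and over 81.0%, 33.5% and 4.62%. The latter also had more 5′-end sites, 60.1% beside 36.8%, so score and class cannot be told apart from these shares. Of the 100 sites with the highest scores, 99 were found in *mbd9-3*, 86 in *arp6-1* and 19 in the double mutant.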

How the data were processed

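Summit lists of H2A.Z over H3 were used for 2 wild-type replicates and, for comparison, for the mutants. The authors aligned reads to TAIR10 with Bowtie, discarded reads that mapped more than once, took out duplicates (SAMtools) and ran MACS2 2.1.1 on each replicate (q value of 0.01, extension size of 200). The deposited score is the −log10 of the q value of a summit. The lists give no read counts, so depth is unknown. Score values were not compared between genotypes, but a limit of at least 5 was applied to the wild-type and *mbd9-3* lists alike. Whether this limit is equally strict in each genotype is not known. The 8 lists that compare H2A.Z between genotypes were not used.

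Each summit was extended by 100 bp on both sides, and merged overlaps of both replicates were common sites. A summit can thus belong to more than 1 site. Gene positions and sequence were from RefSeq TAIR10.1, whose nuclear chromosomes have the lengths of TAIR10. A base took the first fitting class of 5′ end, 3′ end, gene body, upstream, downstream, other gene and intergenic. A gene with at least 1 bp of a site was counted. A 50-base stretch was unique if it occurred once on both strands of the nuclear genome. Intervals are exact Clopper-Pearson (95%, scipy 1.17.1). The procedure was tested on simulated lists.

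Members, families and lists were chosen with earlier results of these data known. Named genes are the 10 with the highest score, the 5 with most sites, the 5 longest without a summit and the members of 8 short lists. The rule also covers the longest arm gap of each chromosome. Replicates were grown on separate plates.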

Additional observations from a re-analysis of the deposited data

How the results depend on the processing

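The number of common sites stayed within 1.5 times of 21919 with joining distances of 100 and 500 bp and with one-to-one pairs, as did the number of protein-coding genes with a site. A score of at least 5 in both replicates left 11677 sites and 9069 genes, and a score of at least 10 left 2745 sites and 2518 genes. The share of sites at 5′ ends was 51.6% with 100 bp, 50.7% with 500 bp and 49.7% with one-to-one pairs. It was 56.1% and 64.0% with scores of at least 5 and 10. A 5′ window of 300 bp held 22.1% of sites and 6.83% of bases, and one of 700 bp held 60.5% and 15.5%. The median distance between sites was 3476, 3417 and 3056 bp with these 3 ways of joining, and 5459 and 23423 bp with the 2 score limits, which leave fewer sites. The ratio of the density in pericentromeres to that in arms was 0.119 and 0.102 with the 2 score limits, 0.240 with a gene density limit of 75% and 0.130 with windows of 250 kb. It was 0.131 when the long run of genes without summits on chromosome 2 was counted as pericentromere, an alternative chosen after seeing the data. With the list of a single replicate there were 26536 to 29980 sites, 15037 to 16921 genes, 44.8 to 45.4% at 5′ ends, a median distance of 1903 to 2062 bp and a density ratio of 0.134 to 0.138.

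With a replicate block, that is the difference within each replicate number, *mbd9-3* minus wild type was again −1.42 points at 5′ ends, −3.03 points in no gene and −0.0846 points in pericentromeres, and the exact p was 0.5, the smallest that 2 pairs can give. Whether the numbers pair the samples cannot be read from 2 replicates. In single replicates these differences were −2.17 to −0.665, −3.42 to −2.63 and −0.125 to −0.0443 points. With scores of at least 5 the difference in no gene was −1.67 points and that in pericentromeres changed sign, to 0.114 points, and the cause was not tested. The depth of the libraries limits which summits were called and is not known.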
